A study of Mus musculus with 2 samples.

Results

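Neutrophils of the primary tumour and of the lymph node were taken from 2 single-cell RNA sequencing libraries by their raw UMI counts (UMIs are molecular tags that mark single captured RNA molecules). A cell was kept with at least 100 detected genes, at most 5% of its UMIs in mitochondrial genes, at least 10 UMIs of S100a8 and S100a9 together, at least 2 of Csf3r, Cxcr2, Retnlg and G0s2 together, under 3 of the C1q genes, at most 1 of the Cd3 genes, at most 1 of Cd79a and Cd79b, and under 20 of Krt8 and Krt18. This rule kept 178 of 24044 deposited cells, 155 of 12427 in the primary tumour and 23 of 11617 in the lymph node. S100a8 and S100a9 encode the subunits of calprotectin, which fills the cytosol of neutrophils, Csf3r encodes the receptor for the growth factor that drives their production, and Retnlg and Cxcr2 are further genes used to recognise them. These genes chose the cells, so the members were chosen by their own readout and the levels of these genes are a description, not a finding.

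The mice were C57BL/6J with tumours of EO771-HEVM3, a derivative of the mouse mammary cancer line EO771 that the study obtained by repeated selection in mice for spread through high endothelial venules, the vessels by which lymphocytes enter lymph nodes. Material of 6 mice was pooled into 1 library per tissue, with red cells lysed in both. Tumours were digested with collagenases and hyaluronidase for 2 h at 37 °C, whereas lymph nodes were digested with collagenase P, dispase II and DNase for 1 h at 37 °C. Tissue, digestion and library therefore cannot be told apart in any comparison of the 2 groups, and with 1 library each no test between them was possible.

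Neutrophils are short-lived phagocytes that are made in bone marrow. Their precursors fill successive sets of granules with antimicrobial proteins and largely stop transcribing those genes before release, while mature cells in inflamed tissue transcribe cytokines and chemokines such as Il1b and Cxcl2, the latter a ligand of their own receptor Cxcr2. Neutrophils hold little RNA, so they yield few UMIs in droplet methods.

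Of the cells passing both cell filters, neutrophils made up 1.55% in the primary tumour (155 of 10027, exact Clopper-Pearson 95% interval 1.31 to 1.81%) and 0.204% in the lymph node (23 of 11276, 0.129 to 0.306%). Intervals here and throughout cover counting error only. The primary tumour neutrophils had a median of 776 UMIs (500 to 26844) and 372 genes, against 11082 UMIs over all passing cells of that library. The lymph node neutrophils had a median of 2032 UMIs (662 to 6211) and 686 genes, against 2654.5 over all passing cells. No deposited cell had under 500 UMIs, and 33 of the 155 primary tumour neutrophils but 0 of the 23 lymph node neutrophils had under 600. Many tumour neutrophils thus lay directly above the floor of the deposited data. The share of neutrophils that fell below that floor is not known, and its part in the difference between the shares was not tested.

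The limits of the rule cut through shallow cells in the primary tumour. There, 71 cells failed the S100a8 and S100a9 limit alone (median 732 UMIs), 42 failed the limit on the granulocyte genes alone (median 740 UMIs) and 20 failed the mitochondrial limit alone. Just outside the calprotectin limit, with 8 or 9 UMIs, lay 15 tumour cells, and just inside it, with 10 or 11, lay 4. In the lymph node 0 cells lay just outside and 2 just inside, and 6 cells failed this limit alone. The keratin limit removed 26 tumour cells with a median of 19749.5 UMIs. A total of 47 barcodes occurred in both libraries, of which 3 belonged to primary tumour and 1 to lymph node neutrophils, and 0 belonged to neutrophils in both.

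Some cells kept by the rule had little calprotectin for their depth. S100a8 and S100a9 took, at the median, 5.85% of the UMIs of a tumour neutrophil and 18% of those of a lymph node neutrophil, but under 1% in 12 tumour and 2 lymph node cells. These 12 tumour cells had a median of 1316 genes and 20.7% ribosomal protein UMIs, against 358 genes and 3.59% in the other 143, and they held 39.1% of all tumour neutrophil UMIs. The deepest of the 12 had 26844, 20080 and 12966 UMIs, and the others had 1049 to 9317. Col1a1 and Col1a2, the collagen genes of fibroblasts, had 143 of 145 and 148 of 148 of their UMIs in the 12 cells. These UMIs were not spread evenly, since 1 cell held 80.5% of the tumour neutrophil UMIs of the fibroblast list, to which both genes belong. All 3 of the neutrophils that the doublet caller Scrublet marked were among the 12. The 2 lymph node cells held 14.8% of the UMIs there, with ribosomal shares of 18.4 and 25.8%. Whether these 14 droplets held more than 1 cell or took up free calprotectin RNA was not tested. S100a8 and S100a9 together reached 7.0 CPM (a gene's UMIs as a part of all UMIs in a set of cells, scaled to 1000000) in tumour T cells and 2.63 CPM in lymph node T cells. The T cells were chosen with under 10 UMIs of both genes together, so these values are capped by the choice and give no background level. Results are given over all neutrophils and, where it matters, over the 143 and 21 cells at or above 1%, a limit set after the data were seen. In the tumour this limit cut a continuous range, from 0.955% just below it to 1.15% just above it. Of the 143 tumour cells, 12 also had over 10% ribosomal protein UMIs, against 10 of the 12 below the limit.

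**Figure D1:**
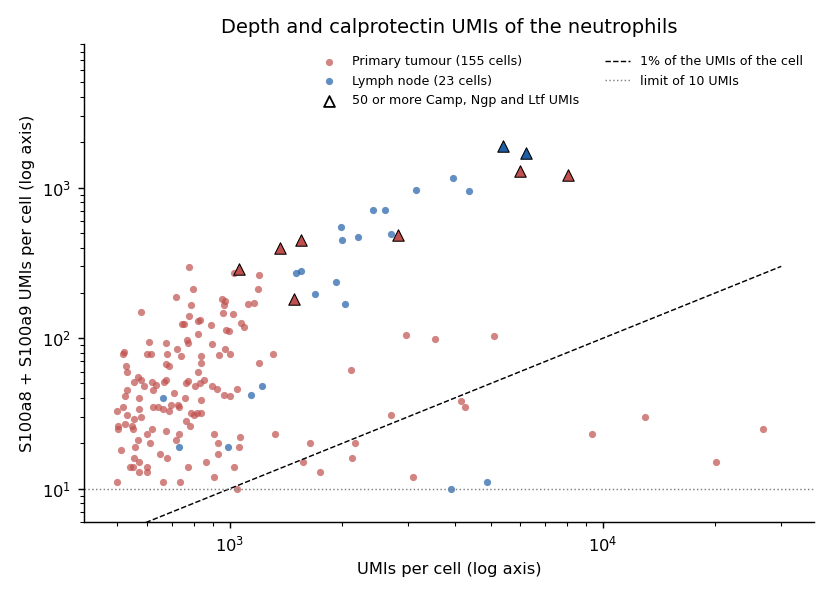
UMIs per cell (x axis, log) against S100a8 plus S100a9 UMIs (y axis, log) for 155 primary tumour and 23 lymph node neutrophils. The 12 tumour and 2 lymph node cells under the dashed line have calprotectin below 1% of their UMIs, and triangles mark the 9 cells rich in Camp, Ngp and Ltf.

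The label was checked against neutrophil genes that the rule did not use. Over the summed UMIs of all tumour neutrophils, Hdc, the histamine-forming enzyme, was at 1281 CPM in neutrophils and 1.68 CPM in T cells of the same library. Il1r2, the decoy receptor for interleukin 1, was at 639 against 12 CPM, and Clec4d, a lectin of myeloid cells, at 1185 against 8.40 CPM. Stfa2l1, of the stefin A family of protease inhibitors, was at 687 against 0.560 CPM. All 22 genes of the neutrophil identity list were detected in both libraries. Ly6g, the surface protein that defines mouse neutrophils in flow cytometry, was low in the tumour, with 11 UMIs in 9 of the 155 cells (48.1 CPM, 24 to 86.1), and higher in the lymph node, with 23 UMIs in 8 of the 23 cells (388 CPM, 246 to 582). With each cell thinned to 500 UMIs, 2.58% of tumour and 12.5% of lymph node neutrophils were expected to show a Ly6g UMI, against 0.0343% and 0.0648% of T cells. Of the lists that mark other cells, the monocyte list summed to 216 UMIs in 42 tumour neutrophils (945 CPM, against 2989 CPM in tumour monocytes and 1005 CPM in tumour T cells) and to 66 UMIs in 13 lymph node neutrophils (1113 CPM, against 2526 CPM in lymph node monocytes and 546 CPM in T cells). In the tumour 103 of these UMIs were of Fn1, which encodes fibronectin, 76 of them in the 12 cells of low calprotectin share, and in the lymph node 47 were of Ly6c2. The macrophage list summed to 35 UMIs in tumour and 4 in lymph node neutrophils, the dendritic cell list to 15 and 19, the T cell list to 53 and 0, and the B cell list, which holds genes of the rule, to 0 and 4. The fibroblast list reached 406 UMIs over 5 of its 6 genes in the tumour, 80.5% of them in 1 cell, and 0 in the lymph node. The erythroid list had 801 UMIs in the tumour, 97.8% of them in 1 cell, and 1 in the lymph node. The cancer cell list had 58 and 5 UMIs, the platelet list 16 and 0, and the NK, mast cell, endothelial and eosinophil lists 0 to 4 in either library. The part of these cells in the results was not tested, beyond the values without the 12 and 2 cells.

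The primary tumour also held 173 macrophages (at least 10 C1q UMIs) and 263 monocytes (at least 3 UMIs of Ly6c2, Ccr2, Csf1r and F13a1), which served to show where neutrophils differ from other myeloid cells. Both were chosen to be low in S100a8 and S100a9 and C1q splits them from neutrophils, so the following values are descriptions. Of 6025 genes with at least 20 UMIs in neutrophils and macrophages together, 12.3% were at least 2-fold higher and 21.4% at least 2-fold lower in neutrophils. Without the 12 cells of low calprotectin share, 5657 genes had enough UMIs, with 11.2% higher and 41.5% lower. The neutrophil identity list was at least 2-fold higher in 19 of 19 genes against macrophages. Monocytes came closer in Mmp8 (101 against 156 CPM in monocytes) and Clec4e (1207 against 1093 CPM), a lectin that senses mycobacterial and dead-cell ligands. Macrophage genes were lower in 8 of 8, with Apoe, a lipid carrier, at 26.2 against 2802 CPM and Mrc1, a mannose receptor, at 0 against 796 CPM. Of the antigen presentation genes, 7 of 10 were lower than in macrophages and 1 was higher. Cd74, the invariant chain of MHC class II, stood at 490 CPM in neutrophils, 4384 CPM in macrophages and 2833 CPM in monocytes, and T cells, which make little of it, were at 590 CPM. Cd80, a ligand of T cell co-receptors, was the exception, at 192 CPM against 28.3 CPM in macrophages and 69.2 CPM in monocytes.

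Cytokines and chemokines were only partly shared with the other myeloid cells. Of 16 measured, 7 were at least 2-fold higher and 2 lower in neutrophils than in macrophages, beside 12.3 and 21.4% of all genes. Against monocytes 3 were higher and 3 lower. The median log2 ratio was 0.14 against macrophages and 0.11 against monocytes, beside −0.23 and −0.26 over all genes. Cxcl2 was at 22987 CPM in neutrophils, 12086 CPM in monocytes and 5637 CPM in macrophages. Ccl3, an inflammatory chemokine, was at 2926, 774 and 309 CPM in the same order. Il1b did not separate neutrophils from monocytes, at 5533 against 7094 CPM. Ccl9 and Cxcl10 were lower in neutrophils, at 83.1 against 1299 CPM and at 78.7 against 618 CPM in monocytes. Cxcl10 and Cxcl1 depended on the 12 cells of low calprotectin share, since without them Cxcl10 was at 14.4 CPM and Cxcl1 at 35.9 CPM in place of 354 CPM.

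**Figure D2:**
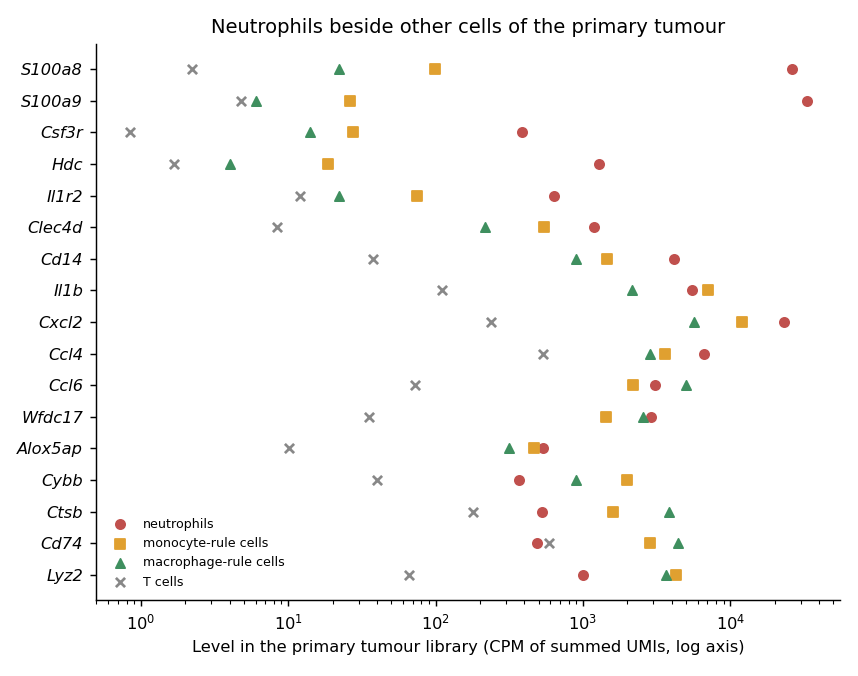
Level of 17 genes in the primary tumour library (CPM of summed UMIs, log axis) in neutrophils, monocyte-rule cells, macrophage-rule cells and T cells; S100a8, S100a9 and Csf3r are genes of the rule. Neutrophils are highest for Hdc and Cxcl2, near monocytes for Il1b and Alox5ap, and lowest of the 3 myeloid sets for Cd74 and Lyz2.

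Camp, Ngp and Ltf UMIs lay almost wholly in 9 cells. Camp encodes the cathelicidin antimicrobial peptide, Ngp a granule protein of the cystatin fold, and Ltf the iron-binding lactoferrin, and all 3 are made for the secondary granules in bone marrow precursors. Over Camp, Ngp and Ltf together, 7 tumour and 2 lymph node cells had 50 or more UMIs, whereas the next cells had 13 and 21. The 7 tumour cells held all 861 Camp UMIs, 95.4% of the Ngp and 99.4% of the Ltf UMIs of the tumour neutrophils. Per cell, Camp had 254, 358, 87, 23, 46, 56 and 37 UMIs in these 7 cells and 186 and 263 in the 2 lymph node cells. In the same order of tumour cells, Ngp had 247, 282, 189, 60, 100, 1 and 6 UMIs, so that the 2 least Ngp-rich cells still carried Camp and Ltf. The limit of 50 UMIs was set after the data were seen and fell in the gap between the groups.

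Promoter sequence was read for the 3 granule genes that occurred in the same 9 cells and for Cxcl2, the cytokine gene with the most UMIs in the other cells. Each run is the 250 bases before the annotated start, 5′ to 3′ on the strand of the gene, from RefSeq on GRCm38.p6. Capitals mark matches on either strand to TTGCNNAA, letters bound by C/EBP factors, which govern granule genes, or to GGGA, any 2 bases and TTCC, letters bound by NF-kB factors, which act in inflammatory signalling. The runs are Camp at chr9:109849457-109849706 (minus strand), Ngp at chr9:110419558-110419807 (plus), Ltf at chr9:111019042-111019291 (plus) and Cxcl2 at chr5:90903649-90903898 (plus).
Camp: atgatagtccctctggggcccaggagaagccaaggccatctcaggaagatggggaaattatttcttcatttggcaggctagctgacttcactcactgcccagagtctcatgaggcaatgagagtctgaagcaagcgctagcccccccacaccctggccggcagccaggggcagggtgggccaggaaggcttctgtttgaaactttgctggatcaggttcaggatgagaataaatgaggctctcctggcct
Ngp: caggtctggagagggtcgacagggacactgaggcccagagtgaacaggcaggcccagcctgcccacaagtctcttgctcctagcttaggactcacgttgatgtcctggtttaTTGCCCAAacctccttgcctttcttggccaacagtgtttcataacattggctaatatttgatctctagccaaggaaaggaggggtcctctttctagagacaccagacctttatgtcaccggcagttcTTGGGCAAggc
Ltf: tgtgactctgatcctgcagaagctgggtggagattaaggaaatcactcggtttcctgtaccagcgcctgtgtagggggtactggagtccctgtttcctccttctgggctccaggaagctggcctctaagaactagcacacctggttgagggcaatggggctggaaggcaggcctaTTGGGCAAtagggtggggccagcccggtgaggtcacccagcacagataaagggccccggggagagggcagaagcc
Cxcl2: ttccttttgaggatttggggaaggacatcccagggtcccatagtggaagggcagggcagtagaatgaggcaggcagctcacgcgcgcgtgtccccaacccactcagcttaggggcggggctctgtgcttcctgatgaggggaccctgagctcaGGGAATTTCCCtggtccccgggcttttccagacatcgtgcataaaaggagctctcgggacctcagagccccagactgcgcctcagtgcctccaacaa
The C/EBP letters occurred in 9.56% of 32851 promoters of this length, with 2 matches in Ngp and 1 in Ltf. The NF-kB letters occurred in 1.21%, with 2 overlapping matches, 1 on each strand, in Cxcl2. Camp held neither set of letters, which says only that these letters are not in this window.

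The cells rich in granule genes held less cytokine RNA than the others. Il1b had 0 UMIs in all 9, while 119 of the other 136 tumour cells and 16 of the other 19 lymph node cells at or above the 1% limit had at least 1 Il1b UMI. Summed over the 7 tumour cells, 0 Il1b UMIs in 22342 stood against 9716 CPM in the other 136. Cxcl3 was also at 0 UMIs in all 9, against 6106 CPM in the 136 tumour cells. Cxcl2 had 16 UMIs in the 7 tumour cells (716 CPM) and 1 UMI in the 2 lymph node cells (86.2 CPM), against 39786 and 13320 CPM in the others. Il1rn had 7 UMIs in 4 of the 7 tumour cells (313 CPM, against 3643 CPM in the 136) and 1 UMI in the lymph node cells. Ccl3 had 5 UMIs in 2 of the 7 (224 against 5157 CPM) and 1 UMI in the lymph node cells. Cd14, the co-receptor for bacterial lipopolysaccharide, was at 985 CPM in the 7 cells and 7466 CPM in the 136. Lcn2, the iron-scavenging lipocalin of the same granules, spread further, with UMIs in 73 of the 136 cells at 1574 CPM against 16874 CPM in the 7. Chil3, a chitinase-like protein, followed Camp more closely, with 243 of 256 UMIs in the 7 cells.

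Markers of early stages were scarce. Cebpe, the factor required for secondary granules, had 5 UMIs in tumour neutrophils, all in 3 of the 7 granule-rich cells. Top2a and Mki67, genes of dividing cells, had 16 and 6 UMIs in the 7 cells, all in 2 of them, and 3 and 1 UMIs in the other 136. In the lymph node Top2a and Mki67 had 0 UMIs in the 2 granule-rich cells, Mki67 had 2 UMIs in 1 of the other 19, and of 2 Cebpe UMIs 1 lay in a granule-rich cell. Mpo, Elane and Ctsg, which encode primary granule proteins made before Camp, were at 0 UMIs in all 178 neutrophils. Prtn3 and Ms4a3 had 2 UMIs each, both in the tumour. The granule-rich cells were deeper than the others, with medians of 1548 and 750 UMIs in the tumour.

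**Figure D3:**
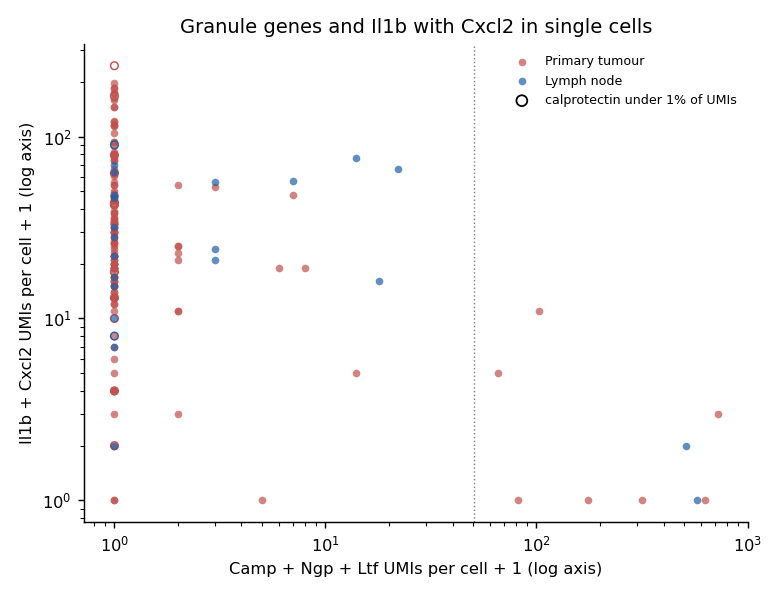
Camp, Ngp and Ltf UMIs per cell plus 1 (x axis, log) against Il1b and Cxcl2 UMIs per cell plus 1 (y axis, log); open circles have calprotectin below 1% of UMIs and the dotted line marks 50 granule UMIs. The 9 cells right of the line have at most 10 Il1b and Cxcl2 UMIs.

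Among the other 136 tumour neutrophils, cytokine genes varied widely and together. Cxcl2 had a lowest, median and highest value of 0, 20 and 178 UMIs over the 143 cells at or above the 1% limit, and reached 16.8% of the UMIs of a cell. Ccl3 and Ccl4, close paralogues, had together a median of 4 and a highest value of 125 UMIs over the 136 cells. To describe this range, cells were split at 0 Ccl3 and Ccl4 UMIs (28 cells), 1 to 9 (54) and 10 or more (54), with 12 cells at 5 to 9 and 17 at 10 to 14, so the upper limit cuts a continuous range and marks no cell type. Their median depths were 765.5, 670 and 823 UMIs. Across these sets Cxcl2 was at 19411, 26660 and 60460 CPM, Il1b at 5931, 8182 and 12754 CPM, and Il1rn, the interleukin 1 receptor antagonist, at 1573, 3642 and 4563 CPM. Nfkbia, the NF-kB inhibitor that NF-kB itself induces, was at 1033, 1978 and 3766 CPM. Tnf was at 0 UMIs in the 28 cells (at most 166 CPM by the exact Poisson interval) and at 202 and 837 CPM in the others. Retnlg ran the other way, at 17434, 5597 and 3906 CPM, and so did Wfdc21, a small secreted protein, at 3055, 1573 and 757 CPM. S100a8 was also lower along this order, at 45111, 32976 and 23494 CPM. Retnlg and S100a8 are genes of the rule, and not all neutrophil genes followed them. G0s2, also of the rule, was at 4179, 4720 and 8110 CPM, Hdc at 1797, 2315 and 2292 CPM, and Stfa2l1 at 1168, 1101 and 1534 CPM.

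Across the 136 tumour cells, Spearman's rho of the UMI shares was 0.57 between Cxcl2 and Ccl3 with Ccl4, 0.57 between Cxcl2 and Il1b, and −0.41 between Retnlg and Cxcl2. Over the 19 lymph node cells the same pairs gave 0.19, 0.64 and −0.22. Calprotectin and Retnlg had a rho of 0.53 in the tumour and 0.84 in the lymph node. These are descriptions across cells of 1 library that share depth, and shares of 1 total are bound to offset each other.

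The lymph node neutrophils were set against those of the primary tumour over 1942 genes with at least 20 UMIs in both sets together. Of these genes, 11.4% (221) were at least 2-fold higher and 34.3% (666) at least 2-fold lower in the lymph node, with a median log2 ratio of −0.44. Ratios were CPM with 0.5 counts added. Over the 143 and 21 cells at or above the 1% limit, 1168 genes had enough UMIs, with 11.1% higher and 30.1% lower. The lists are counted in every cell set over the genes of the 1942, of which 12.7% were higher and 30.7% lower at or above the 1% limit (median −0.33), and 16.2% higher and 29.1% lower without the granule-rich cells as well (median −0.25). Lists are read against these values.

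Cytokine and chemokine genes were lower in lymph node neutrophils. Of 15 tested, 12 were at least 2-fold lower and 0 at least 2-fold higher, with a median log2 ratio of −2.65, and 14 were lower over the cells at or above the 1% limit (median −2.44). Summed over all 16 listed genes, neutrophils were at 49067 CPM in the tumour and 17527 CPM in the lymph node. Other cells were lower in the lymph node too, monocytes at 34239 and 2388 CPM and T cells at 1647 and 294 CPM. Macrophages were at 21579 and 3221 CPM, the latter over 6 cells. A lower level in the lymph node was thus not particular to neutrophils. Cxcl2 was at 22987 CPM in the tumour (22370 to 23617, exact Poisson) and 9683 CPM in the lymph node (8907 to 10508), a log2 ratio of −1.25 (−1.37 to −1.12). It was found in 147 of 155 and 22 of 23 cells, with a median of 20 UMIs per cell in both libraries. The lymph node cells were deeper (median 2032 against 776 UMIs). At the median over cells, Cxcl2 took 2.37% of the UMIs of a tumour cell and 1.01% of those of a lymph node cell. The ratio is thus one of shares and not of UMIs per cell. Thinned to 500 UMIs, 92.1% of tumour and 84.3% of lymph node neutrophils were expected to show a Cxcl2 UMI, against 3.59 and 0.429% of T cells. Ccl4 was at 6578 CPM in the tumour and 776 CPM in the lymph node, a log2 ratio of −3.07 (−3.54 to −2.66), with UMIs in 80 of 155 and 7 of 23 cells. Ccl3 was at 2926 and 337 CPM (log2 −3.08, −3.84 to −2.48), with UMIs in 97 of 155 and 6 of 23 cells. Cxcl3, a further Cxcr2 ligand, was at 3656 and 574 CPM (log2 −2.65), and Osm, a cytokine of the interleukin 6 family, had 132 UMIs in the tumour and 2 in the lymph node (log2 −3.78, −7.16 to −2.22).

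Il1b differed less, and its ratio depended on the cells of low calprotectin share. It was at 5533 CPM (5232 to 5846) in the tumour and 3053 CPM (2625 to 3532) in the lymph node, a log2 ratio of −0.85, and of −1.55 without the 12 and 2 cells. The 2 lymph node cells held 41 of its 181 Il1b UMIs. The median was 5 Il1b UMIs per cell in both libraries, so here too the shares differed and not the median count. Ptgs2, the inducible cyclooxygenase, moved likewise, from 1146 and 287 CPM (log2 −1.96) to 1716 and 79.2 CPM (log2 −4.27). Ccl6, a chemokine that neutrophils and macrophages make, was closer between the libraries, at 3105 and 2142 CPM (log2 −0.53, −0.82 to −0.26).

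Genes of the NF-kB and Toll-like receptor list were lower in the same direction, 9 of 11 by at least 2-fold and 0 higher, with a median of −1.14 (−1.76 at or above the 1% limit). The summed list was also lower in lymph node monocytes, at 8323 CPM in the tumour and 2418 CPM in the lymph node. Macrophages were at 7301 and 3124 CPM, but T cells were not lower, at 1057.5 and 1177 CPM. Nfkbia was at 1789 and 827 CPM (log2 −1.10, −1.57 to −0.68), and Tnfaip3, a brake on NF-kB, had 80 and 5 UMIs (log2 −1.92). Cd14 was nearer, at 4172 and 3087 CPM (log2 −0.43), with a median of 5 UMIs per cell in both libraries. Genes that tissue dissociation is known to induce were also lower in lymph node neutrophils, 10 of 12 by at least 2-fold and 0 higher, with a median of −1.66. Summed over this list, neutrophils were at 7772 CPM in the tumour and 2497 CPM in the lymph node. Other cells of the same libraries differed less, with monocytes at 4747 and 4661 CPM, macrophages at 7122 and 5174 CPM and T cells at 4240 and 4435 CPM. Egr1, an immediate early factor, was at 958 and 135 CPM (log2 −2.74, −4.06 to −1.82). Hspa1b, a heat shock chaperone, had 79 UMIs in 10 tumour cells and 0 in the lymph node, which is at least 6.83-fold lower against a limit of 3 UMIs. The tumour digestion took 2 h and that of the lymph node 1 h, and the part of digestion in the cytokine and NF-kB ratios was not tested.

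Of 10 survival genes, 3 were at least 2-fold lower and 0 higher over all neutrophils (median −0.60, against 34.3% lower and a median of −0.44 over all genes). At or above the 1% limit 5 were lower (median −1.20, against 30.7% and −0.33), and without the granule-rich cells as well 6 were lower (median −1.19, against 29.1% and −0.25), so this count depended on which cells were kept. Bcl2l1, an anti-apoptotic gene, had 79 and 3 UMIs (log2 −2.56, −5.08 to −1.17), and the neutrophil survival genes Bcl2a1a and Bcl2a1b, near-identical copies among which reads can be split, were at log2 −1.65 and −1.42. Mcl1, on which neutrophil survival rests, was close to the overall median at 1531 and 1299 CPM (log2 −0.23, −0.61 to 0.12). In the list of tumour neutrophil and suppressor genes, 6 of 12 were lower and 2 higher (median −1.04), and 9 were lower and 1 higher at or above the 1% limit (median −1.29). Cd274, which encodes PD-L1, had 47 UMIs in 38 tumour cells and 2 UMIs in 2 lymph node cells (log2 −2.30, −5.69 to −0.67). Hilpda, a hypoxia-induced lipid droplet protein, was at 1181 and 523 CPM (log2 −1.15), and of the glycolysis and hypoxia list 5 of 13 genes were lower and 0 higher (median −0.76), a share close to the 34.3% of all genes, with 5 lower at or above the 1% limit (median −0.70) and 7 without the granule-rich cells as well (median −1.04, against 29.1% and −0.25 over all genes). Slc2a1, the glucose transporter, had 35 UMIs in the tumour and 0 in the lymph node, at least 3.02-fold lower, while Gapdh was at 1487 and 2126 CPM (log2 0.52).

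Genes of neutrophil identity were higher in lymph node neutrophils, 11 of 21 by at least 2-fold and 1 lower, with a median log2 ratio of 1.05 (0.56 at or above the 1% limit, where 8 were higher). Mmp8, a collagenase of the granules, had 23 UMIs in 14 tumour cells and 48 in 13 lymph node cells, at 101 and 810 CPM (log2 2.99, 2.26 to 3.79). Lrg1, a secreted glycoprotein, was at 140 and 911 CPM (log2 2.69, 2.05 to 3.38). Pglyrp1, a peptidoglycan-binding granule protein, was at 678 and 2379 CPM (log2 1.81). Acod1, which makes itaconate in activated myeloid cells, was the only member at least 2-fold lower, at 2646 and 1198 CPM (log2 −1.13, −1.52 to −0.79). Hdc, Clec4d, Il1r2 and Stfa2l1 lay within 0.06 to 0.39 on the log2 scale, and the intervals of these 4 spanned 0.

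Granule genes were higher by list, 7 of 12 by at least 2-fold and 0 lower (median 1.07), but the size of this difference depended on which cells were kept. At or above the 1% limit 4 were higher and 1 lower (median 0.59). Without the 9 granule-rich cells as well, 8 were higher and 1 lower (median 1.90). All genes higher made up 12.7 and 16.2% in these cell sets. With cells thinned to 1000 UMIs, which keeps only 42 tumour and 20 lymph node cells, the list median was −0.067. Lcn2 was higher in the lymph node with and without the granule-rich cells, which held 66.6% of its tumour and 55.3% of its lymph node UMIs. It was at 2475 CPM (2276 to 2688) and 9514 CPM (8745 to 10333), a log2 ratio of 1.94, with 1.47 at or above the 1% limit, 2.04 without the granule-rich cells as well, 1.09 with at least 50 calprotectin UMIs and 0.94 with cells thinned to 1000 UMIs. Camp and Ngp had log2 ratios of 1.02 and 1.13, and 2 of 23 lymph node cells held 99.3 and 90.1% of their UMIs there. Hp, which encodes haptoglobin, was at 297 and 1501 CPM (log2 2.33, 1.86 to 2.81). Lyz2, the myeloid lysozyme, was at 997 and 5094 CPM (log2 2.35).

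Of the NADPH oxidase genes, whose complex makes the oxidative burst, 4 of 6 were at least 2-fold higher and 1 lower in the lymph node (median 1.43, 1.05 at or above the 1% limit). Rac2, its GTPase, was at 210 and 962 CPM (log2 2.19, 1.62 to 2.78) and Ncf4, a cytosolic subunit, at 87.5 and 439 CPM (log2 2.32), while Ncf1, another cytosolic subunit, was lower at 354 and 135 CPM (log2 −1.31). Cybb, the catalytic subunit, was at 367 and 557 CPM (log2 0.61, −0.03 to 1.20). Alox5ap, which presents arachidonic acid to 5-lipoxygenase, was at 534 and 2395 CPM (log2 2.17, 1.81 to 2.53), although Alox5 itself had 1 UMI in each library. Alox12, the 12-lipoxygenase gene of the study, had 0 UMIs in both, which allows up to 13.1 CPM in tumour and 50.6 CPM in lymph node neutrophils.

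Interferon-induced genes split. Of 7 tested, 3 were at least 2-fold higher and 2 lower (3 and 1 at or above the 1% limit), and 11 of 18 listed genes had too few UMIs. The membrane proteins Ifitm2, Ifitm3 and Ifitm6, which restrict virus entry, were higher, with Ifitm6 at 429 and 2429 CPM (log2 2.50, 2.12 to 2.89), and Ifitm1 of the identity list was at 1124 and 5786 CPM (log2 2.36, 2.13 to 2.60). Gbp2, an interferon-induced GTPase, had 24 and 0 UMIs. Isg15, a ubiquitin-like effector, had 21 and 10 UMIs (log2 0.91, −0.37 to 2.03). Of 11 Fc and paired receptor genes, 5 were higher and 1 lower (median 0.79), but at or above the 1% limit 2 were higher (median 0.52) and without the granule-rich cells as well 1 was (median 0.40), beside 12.7 and 16.2% of all genes. The signalling adaptors Fcer1g (1518 and 3610 CPM) and Tyrobp (1846 and 4673 CPM) had log2 ratios of 1.25 and 1.34 over all neutrophils and of 0.83 and 0.86 at or above the 1% limit.

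Receptors and adhesion molecules gave mixed ratios. Of 9 chemoattractant receptors, of which Cxcr2 belongs to the rule, 1 was at least 2-fold higher and 2 lower (median −0.14), and 1 was higher and 4 lower at or above the 1% limit (median −0.40). Ltb4r1, the leukotriene B4 receptor, was higher at 78.7 and 219 CPM (log2 1.49, 0.33 to 2.59), and Ptafr, the receptor for platelet-activating factor, lower at 796 and 354 CPM (log2 −1.14). Cxcr4, which retains neutrophils in bone marrow, had 40 and 9 UMIs (log2 −0.14, −1.43 to 0.86). Of 10 adhesion molecules, 3 were higher and 2 lower (median 0.57), and 1 was higher and 2 lower at or above the 1% limit (median 0.22). Cd44, a receptor for hyaluronan, was at 1483 and 574 CPM (log2 −1.35). Of 7 antigen presentation genes, 4 were lower (3 at or above the 1% limit) and 1, H2-D1, was higher, at 1137 and 2581 CPM (log2 1.18).

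**Figure D4:**
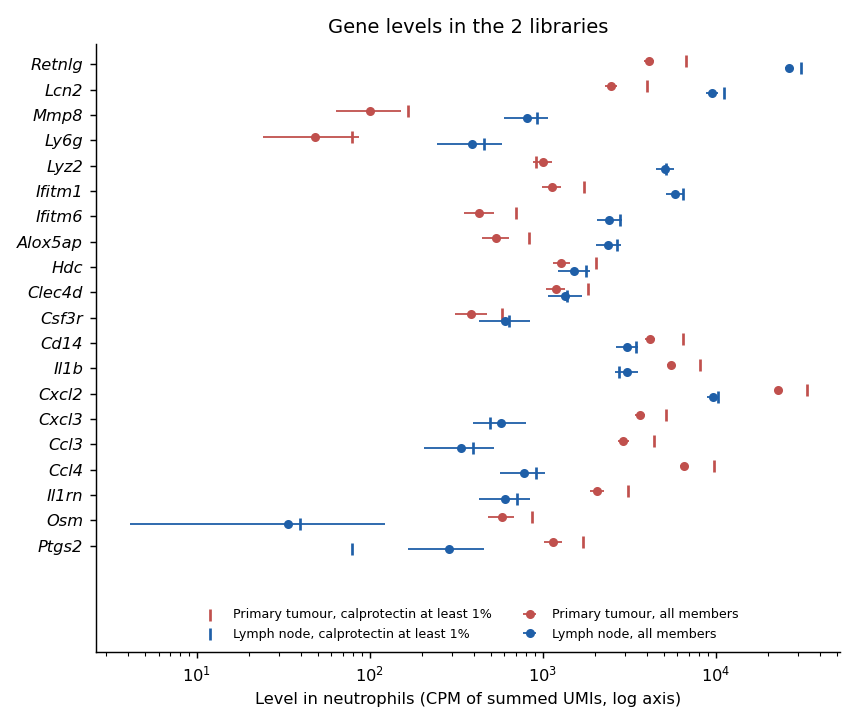
Level of 20 genes in neutrophils (CPM of summed UMIs, log axis) in the primary tumour and lymph node libraries, as points with exact Poisson 95% intervals over all members and as ticks over cells with calprotectin of at least 1% of UMIs. The intervals of the 2 libraries are apart for Cxcl2, Cxcl3, Ccl3 and Ccl4, higher in the tumour, and for Lcn2, Mmp8, Ifitm1 and Alox5ap, higher in the lymph node.

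Of all genes found in at least 10% of the cells of the higher library, the 10 with the highest ratios were Mmp8, Ly6g, Ubb, Ceacam1, Cd37, Lrg1, Retnlg, Cd300a, Trem3 and Emb, at log2 2.51 to 2.99. Ubb, a polyubiquitin gene, was at 512 and 3559 CPM, and T cells differed in the same direction, at 463 and 2226 CPM. Emb, a cell surface glycoprotein, was likewise higher in lymph node T cells, at 62.4 and 817 CPM. The 10 genes with the lowest ratios, Krt8, Ly6a, Emp1, Actn4, Ssr3, Cpeb2, Dcn, Arl5b, Hbegf and Manf, had 37 to 67 UMIs in the tumour and 0 in the lymph node, at least 3.20 to 5.79-fold lower. For Ly6a, Emp1, Actn4 and Dcn most of these UMIs lay in the 12 cells of low calprotectin share. Krt8 and, among the highest, Retnlg belong to the rule, so their ratios are descriptions, and the rule caps Krt8 in neutrophils. The T cell rule had no such cap, and tumour T cells had up to 104822 UMIs. They held 1043 CPM of the cancer cell list and 779 CPM of the fibroblast list. The part of RNA from other cells in the following T cell levels was not tested. In tumour T cells, 7 of the 10 were at or above their level in tumour neutrophils, with Krt8 at 873 against 293 CPM, Ly6a at 942 against 227, Dcn at 739 against 214, Emp1 at 311 against 223, Actn4 at 250.03 against 219, Manf at 202 against 162 and Hbegf at 179 against 166, and Ssr3 was near it at 157 against 214 CPM. Cpeb2, a regulator of translation, and Arl5b, a small GTPase, differed from these, with 43 of 49 and 38 of 42 UMIs in the cells at or above the 1% limit and T cells at 16.2 and 21.3 CPM.

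**Figure D5:**
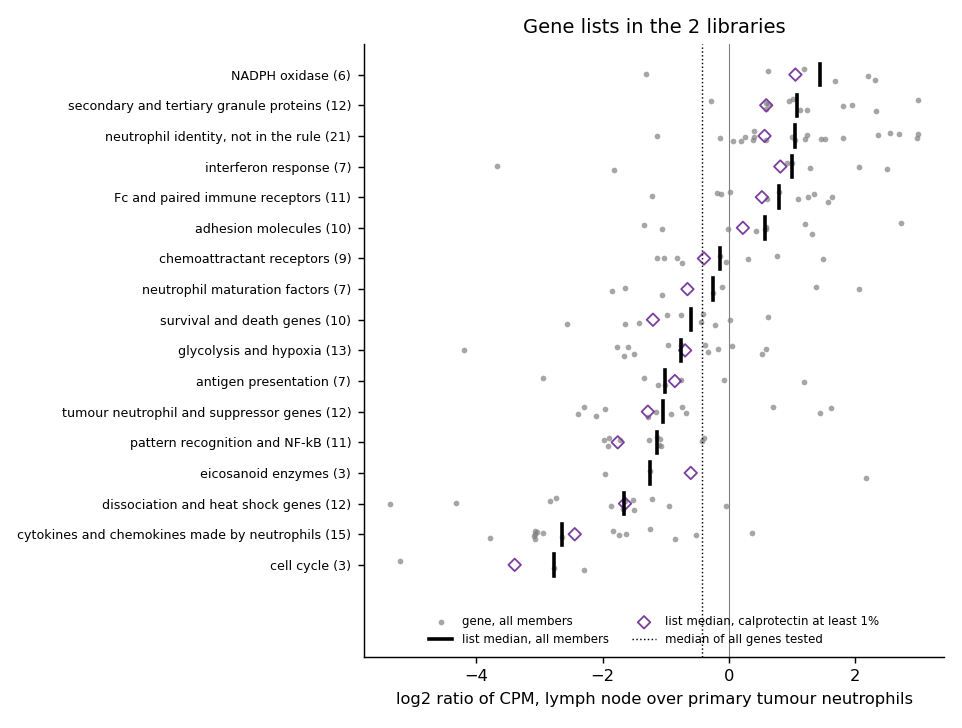
Log2 ratio of CPM between lymph node and tumour neutrophils (above 0, higher in the lymph node) for the genes tested of each list (grey points, number in brackets), with the list median over all members (bar) and over cells with calprotectin of at least 1% of UMIs (diamond). The dotted line is the median of all 1942 genes, −0.44, and the cytokine list lies at −2.65 against 1.05 for neutrophil identity.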

How the data were processed

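Droplet 3′ single-cell libraries, 1 of primary tumours and 1 of lymph nodes of 6 pooled mice, were measured. The values that the authors deposited are whole UMI counts, not normalized, for each gene in each cell. The matrix headers name Cell Ranger 5.0.0 and the submitters' processing notes Cell Ranger 2.1.1, with genome GRCm38. No file maps cells to types or mice, so each library is 1 sample and no p-value was computed. The members and gene lists were chosen with earlier results of these data known.

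Counts were summed over neutrophils per library and divided by their total (CPM), with exact Poisson or Clopper-Pearson 95% intervals. Ratios used CPM with 0.5 counts added, genes with at least 20 UMIs together and a limit of 2-fold; a gene at 0 was bounded by 3 UMIs. T cells had at least 3 Cd3 UMIs, at most 1 of Cd79a and Cd79b and under 10 of S100a8 and S100a9, with no keratin limit. Named genes were those of the lists, the 10 leading each library and the 10 highest and lowest ratios. Thinning used expected values, at 500 UMIs for shares, since 1000 would leave out 113 of 155 tumour neutrophils and 3 of 23 in the lymph node; at 500 none was left out. Scrublet (scanpy 1.11.5, expected rate 6%) marked 637 cells (6.35%) and 492 (4.36%), of which 3 and 0 were neutrophils. Doublets were kept in the main values. The ratio code was tested on simulated data. Alternatives tried were other limits of the rule, doublet removal, other filters, added counts, totals and thinning. Results for some withheld items are not reported here.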

Additional observations from a re-analysis of the deposited data

How the results depend on the processing

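No paired analysis was possible because each tissue gave 1 library. For the same reason no replicate could be left out, and all values rest on 23 lymph node neutrophils, of which 2 held nearly all Camp. Cytokine genes were lower in the lymph node at every alternative, with a list median of −3.08 to −1.99. The tumour share of neutrophils was 1.29% with at least 20 calprotectin UMIs, 0.708% with 50, 1.22% with at least 4 granulocyte UMIs and 0.947% without G0s2. The genes higher and lower by 2-fold numbered 77 and 236 with at least 50 calprotectin UMIs, 130 and 352 with calprotectin at least 1% of UMIs (chosen after seeing the data), 68 and 125 with cells thinned to 1000 UMIs, 91 and 278 at a filter of 50 UMIs and 1507 and 2601 at 1 UMI. Without G0s2, 429 were lower, and with the median ratio set to 0, 390 were higher. The granule list median was 0.47 with at least 50 calprotectin UMIs, 0.54 without G0s2, 0.44 with at most 2 monocyte UMIs, 0.59 with calprotectin at least 1%, 2.36 without the granule-rich cells (also chosen after seeing the data), 0.27 without the deepest cell of each library, 1.26 with totals free of S100a8, S100a9, haemoglobin and mitochondrial genes, 1.51 with the median ratio set to 0, and −0.067 after thinning. Camp turned to −0.027 with 50 calprotectin UMIs, −3.42 with at most 2 monocyte UMIs and −0.54 after thinning, and Ngp to −0.30 and −0.34 under the last 2. The thinning, monocyte and G0s2 settings use fewer cells, and the cause of each shift was otherwise not tested. Of 480 log2 ratios of single genes over all alternatives, 368 stayed within their counting interval, 107 moved past it and 5, all named above, changed sign from a value past 2-fold. Values under 2-fold also changed sign, Hdc in 4 alternatives (down to −0.17) and Cd14 with the median ratio set to 0 (0.0041). So did the list medians of the chemoattractant receptors (up to 0.29) and of the adhesion molecules (down to −0.0092).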
